A study of Mus musculus with 2 samples.

Results

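The clustered replication histone genes encode the linker histone H1 and the 4 core histones H2A, H2B, H3 and H4 that package newly copied DNA. They were taken by symbol, as H1f1 to H1f6 and every gene named H2ac, H2bc, H3c or H4c with a number (formerly the Hist1h to Hist4h genes), which gave 64 genes in the RefSeq mouse gene table. Of these 64, 57 were listed in at least 1 library, among 17216 genes listed in all. H2ac1, H2ac14, H2ac19, H2bc1, H2bc22, H3c11 and H3c14 were listed in neither library and count as 0. RNA was sequenced from cells sorted from C57BL/6 mice as long-term haematopoietic stem cells, the bone marrow cells that sustain blood formation, by a gate for cells without lineage markers or CD48 and with Sca-1, c-Kit and CD150. One group, wild type, and the other, Ccp3-/- (without CCP3, a carboxypeptidase of the cytosol), each gave 1 library, and the wild type animals were littermates of the others. The labels give no age, sex, number of pooled animals or deleted part of the gene. No difference below therefore has a replicate check or a test, and each compares 2 libraries rather than 2 genotypes. Pairs of values are given in the order wild type, knockout-labelled.

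Most mRNAs are given a poly(A) tail, but replication histone mRNAs end in a short hairpin, the stem-loop, which is bound by the protein SLBP. Their genes have no introns as a rule, lie in clusters, and are switched on together in S phase by the factor NPAT, so that histone supply follows DNA synthesis. Some separate variant histone genes, such as H3f3a and H2az1, make polyadenylated mRNA in all phases of the cell cycle. Total RNA was extracted, and whether poly(A) selection or removal of ribosomal RNA followed is not given in the sources used here, a step that sets how much of these tailless mRNAs a library holds.

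The stem-loop is printed here because it is the feature that the classes share at the 3′ end. A search after the coding sequence (strand of the transcript) for GG, 3 bases, TTT, 2 bases, A, 3 bases and CC, with all 6 stem bases paired, found it in 40 of the 63 genes that had a GENCODE M21 transcript (GRCm38). It was found in 4 of 6 H1, 10 of 17 H2A, 8 of 16 H2B, 8 of 12 H3 and 10 of 12 H4 genes, and its start lay 24 to 61 bases past the last sense codon. Only 47 of the 63 transcripts are annotated for 50 or more bases past that codon, so a gene without a match may end too early in the annotation. The commonest of 6 forms, GGCTCTTTTCAGAGCC, stood in 23 genes, and all forms with a GGCCC stem stood in H4 genes. In the lines below, which take 1 gene per class from its transcript, capitals mark the hairpin.
H1f2: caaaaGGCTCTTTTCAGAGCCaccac
H2ac24: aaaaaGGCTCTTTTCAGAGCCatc
H2bc8: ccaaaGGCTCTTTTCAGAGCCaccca
H3c3: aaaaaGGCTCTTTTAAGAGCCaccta
H4c9: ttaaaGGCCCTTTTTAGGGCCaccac

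The coding sequences of a class are so alike that short reads from them cannot always be placed. The share of 50-base stretches of a gene's coding sequence that also stood in another of these genes had a median of 85.04% for H2A, 77.1% for H2B, 85.4% for H3 and 71.7% for H4, against 10.99% for H1, whose genes have diverged further. No 50-base stretch was shared between classes, so a stretch of that length does not cross from one class sum to another. The length of the reads is not given in the sources used here, and 50 bases is a setting of this work. FPKM, a count of fragments scaled by transcript length and library depth, steps by the worth of 1 read in short genes, and 224 of 250 low values of other genes (89.6%) lay within 0.15 of a whole read in the wild type library. Of 10 low values of replication histone genes, 3 did. In the knockout-labelled library the figures were 242 of 281 (86.1%) for other genes and 7 of 17 for histone genes. H2bc23 and its neighbour H4bc24 even carried the same pair of values, 1.47 and 1.02 FPKM.

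The gene knocked out, Agbl3, which encodes CCP3, was listed at 1.11 and 0.66 FPKM, from about 23 and 15 reads. Transcripts outside a deleted part would still be counted, so Agbl3 does not check the label. The low-value steps implied about 15.4 M and 14.2 M reads. Of the sort markers, Kit was listed at 59.7 and 56.5 FPKM, Ly6a (Sca-1) at 49.1 and 28.4 FPKM, and Slamf1 (CD150) at only 2.14 and 3.40 FPKM, while Cd48, whose protein the gate excluded, stood at 136 and 114 FPKM. Cd48 RNA was thus far above Slamf1 RNA in both libraries, against what the gate would select, although RNA does not measure surface protein. In such bulk RNA, fewer cells of a type and less RNA per cell cannot be told apart.

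All 5 classes had a lower summed level in the knockout-labelled library. The 57 listed genes together summed to 514 and 396 FPKM, which is a ratio of 0.771. From about 3871 and 2717 reads, the ratio of reads per depth was 0.759 with an approximate exact 95% interval of 0.723 to 0.798. That interval, like every one below, rests on estimated reads and covers counting error only. The total and the H2A sum turn on H2ac10, high in the wild type library, and H2ac24, high in the other: the total was 391 and 393 FPKM without H2ac10 (ratio 1.0045), 450 and 203 FPKM without H2ac24 (0.450), and 327 and 199 FPKM without both (0.609). The genes made up 0.0890% of the wild type FPKM sum and 0.0783% of the other. H3, the histone whose tail carries many of the known chromatin marks, differed most, with 17.5 FPKM against 8.85 FPKM and a ratio of 0.505 (reads 0.490, 0.353 to 0.673). H2B followed with 60.5 against 34.7 FPKM and a ratio of 0.574 (reads 0.650, 0.569 to 0.741). The intervals of H3 and H2B overlap, and over genes listed in both libraries H2B differed more than H3. H4, the partner of H3 in the core of the nucleosome, stood at 38.03 and 28.95 FPKM, a ratio of 0.761 (reads 0.769, 0.621 to 0.954). The linker histone H1, which binds the DNA between nucleosomes, stood at 41.2 and 32.9 FPKM, a ratio of 0.800 (reads 0.791, 0.683 to 0.913). H2A, the most abundant class, stood at 357 and 291 FPKM, a ratio of 0.815 (reads 0.793, 0.746 to 0.843). Although nucleosomes hold the 4 core histones in equal number, H2A made up 69.4% of the wild type sum and 73.4% of the other, and H3 made up 3.41% and 2.23%.

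**Figure D1:**
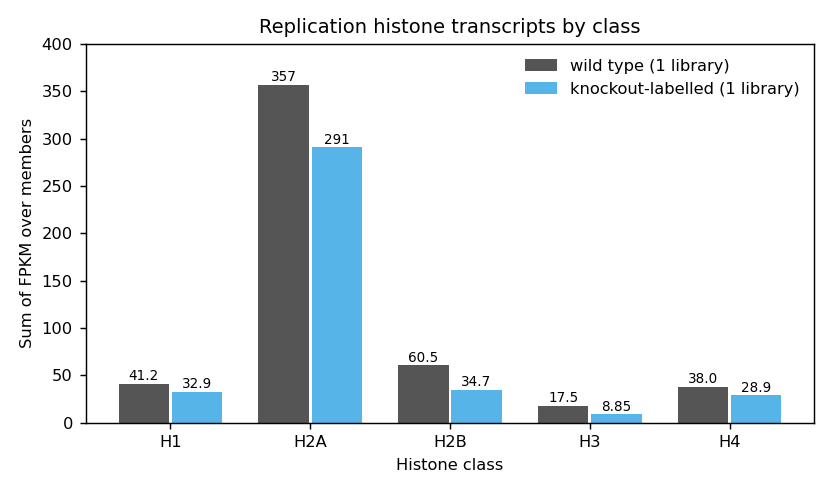
Sum of FPKM over the listed members of each histone class in the wild type library (grey) and the knockout-labelled library (blue), 1 library each and so without error bars. The knockout-labelled bar is the lower in all 5 classes, and H2A stands far above the others.

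Short transcripts in general were lower in the knockout-labelled library, and most replication histone transcripts are short, with listed lengths from 358 to 2667 bases. On the log2(FPKM + 1) scale, which understates the change of low genes, the difference (knockout-labelled minus wild type) had a median of −0.70 over the 33 histone genes whose mean reached 1 FPKM. It was 0.01 over all 11985 such genes, −0.12 over the 5711 others in the same length range, and −0.32 over the 495 others between 404 and 778 bases, the 10th to 90th percentile of the histone genes' lengths. Of the 33, 19 were at least 1.5-fold lower and 2 at least 1.5-fold higher. The same held for 6.13% and 6.11% of all genes, for 9.18% and 3.66% of those in the full length range, and for 22.6% and 3.84% of those between 404 and 778 bases. After subtracting the median of the 200 genes of closest length, 13 were at least 1.5-fold lower and 2 higher. A filter on the mean keeps genes that are high in 1 library only, and without it 29 of 57 were at least 1.5-fold lower and 4 higher. For the counts after the subtraction and without the filter, the share over all genes was not computed. The same subtraction brought the class differences to −0.040 for H1, 0.067 for H2A and −0.010 for H4, from −0.31, −0.29 and −0.38, so that the H2A difference changed sign. H2B went from −0.78 to −0.43 and H3 from −0.91 to −0.55. The part of transcript length in these differences was not tested further.

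**Figure D2:**
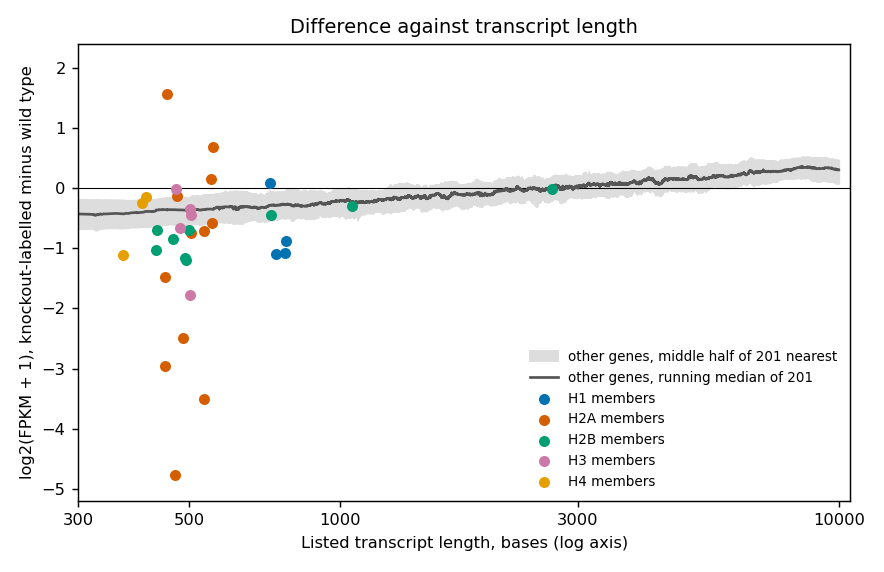
Difference in log2(FPKM + 1), knockout-labelled minus wild type, against listed transcript length in bases (log axis) for histone genes whose mean reached 1 FPKM (points, by class) and other genes (line, running median; band, middle 50% of neighbours). The line lies below 0 for short transcripts, and most histone points lie on or below it, with H2ac24 far above and H2ac10 and H2ac7 far below.

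In H1, H2B, H3 and H4 a single gene was the most abundant in both libraries, and the class sum without it had a ratio of 0.443, 0.453, 0.495 and 0.527. In H2A the most abundant gene was H2ac10 in the wild type and H2ac24 in the knockout-labelled library, so the sum without the leading gene depends on which library picks it. H1f2, a somatic H1 subtype found in most tissues, was listed at 23.8 and 25.2 FPKM, a ratio of 1.06 (0.889 to 1.27). It was the only H1 gene that was not lower. H1f4 stood at 9.81 and 4.90 FPKM, a ratio of 0.499 (0.354 to 0.704). H1f1 stood at 3.23 and 0.99 FPKM and H1f3 at 3.14 and 0.97 FPKM, both more than 3-fold lower. H1f5 was listed at 1.12 and 0.84 FPKM, from 13 and 9 reads, a difference within counting error, and the testis subtype H1f6 at 0.09 FPKM in the wild type library alone. H1f2 thus went from 57.8% to 76.6% of the class, and the class without it summed to 17.4 and 7.70 FPKM, a ratio of 0.443.

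H2A showed the widest spread, with genes differing widely in opposite directions. H2ac10 was listed at 123 and 3.53 FPKM, a ratio of 0.0287 (0.0182 to 0.0446). H2ac7 stood at 46.9 and 3.22 FPKM, a ratio of 0.0687 (0.0435 to 0.106). H2ac24 went the other way, from 64.3 to 194 FPKM, a ratio of 3.01 (2.70 to 3.39), and made up 18.0% of the class in one library and 66.6% in the other. Summed together, these 3 genes, which were grouped after their values were seen, stood at 234 and 200.5 FPKM, a ratio of 0.856, and the other 12 listed H2A genes at 123 and 90.3 FPKM. That sum is a description only, since the choice of genes brings opposite differences together. Their coding sequences are close to identical: of 390 bases, H2ac10 differs from H2ac24 at 6, H2ac7 differs from H2ac24 at 3, and H2ac23 at 0. Reads from copies this alike could have been split by the authors' counting, so their single values are uncertain. The last 90 bases before the stop codon, which hold 3 of the 6 and 1 of the 3 differences, are shown with the bases unlike H2ac24 in capitals (GENCODE M21, GRCm38, bases 301 to 390 of the coding sequence).
H2ac24: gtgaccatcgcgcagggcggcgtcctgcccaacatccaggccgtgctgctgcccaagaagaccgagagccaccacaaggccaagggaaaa
H2ac10: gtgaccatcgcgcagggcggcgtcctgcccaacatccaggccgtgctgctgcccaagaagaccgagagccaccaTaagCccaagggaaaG
H2ac7: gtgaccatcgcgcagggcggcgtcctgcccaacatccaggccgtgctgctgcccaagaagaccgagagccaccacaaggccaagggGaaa
H2ac23: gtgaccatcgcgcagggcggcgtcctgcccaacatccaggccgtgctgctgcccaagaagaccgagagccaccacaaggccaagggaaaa

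Although H2ac23 and H2ac24 have the same coding sequence, H2ac23 was listed at 37.3 and 41.5 FPKM, a ratio of 1.11 (0.9496 to 1.32), beside the 3-fold difference of H2ac24. How reads were assigned among these copies in each library was not tested. H2ac11 was also close in both libraries, at 24.5 and 22.3 FPKM, a ratio of 0.912 (0.725 to 1.16). H2ac18, from the Hist2 cluster, stood at 18.4 and 12.0 FPKM, a ratio of 0.651 (0.495 to 0.855), and H2ac13 at 11.8 and 3.58 FPKM, a ratio of 0.303. H2ac6 was listed at 8.22 and 0.63 FPKM from about 57 and 4 reads. H2ac4 stood at 5.52 and 2.89 FPKM and H2ac15 at 5.22 and 2.80 FPKM. H2ac8 was one of the few genes higher in the knockout-labelled library, at 2.34 and 4.35 FPKM from about 19 and 32 reads. H2ac22 had 6.74 FPKM in the wild type library and was not listed in the other, which is at least 13.1-fold lower against a floor of 3 reads. Of its 50-base coding stretches, 86.5% also stood in others of these genes, so its value and this bound are uncertain. H2ac12 (1.15 FPKM) and H2ac21 (0.20 FPKM) were likewise listed in the wild type library alone. The class summed to 292 and 97.1 FPKM without H2ac24 (ratio 0.332), to 234 and 287 FPKM without H2ac10 (1.23), and to 169 and 93.5 FPKM without both (0.552). Leaving out H2ac24 or H2ac10 alone thus gave opposite directions, and these choices were made after the values were seen.

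**Figure D3:**
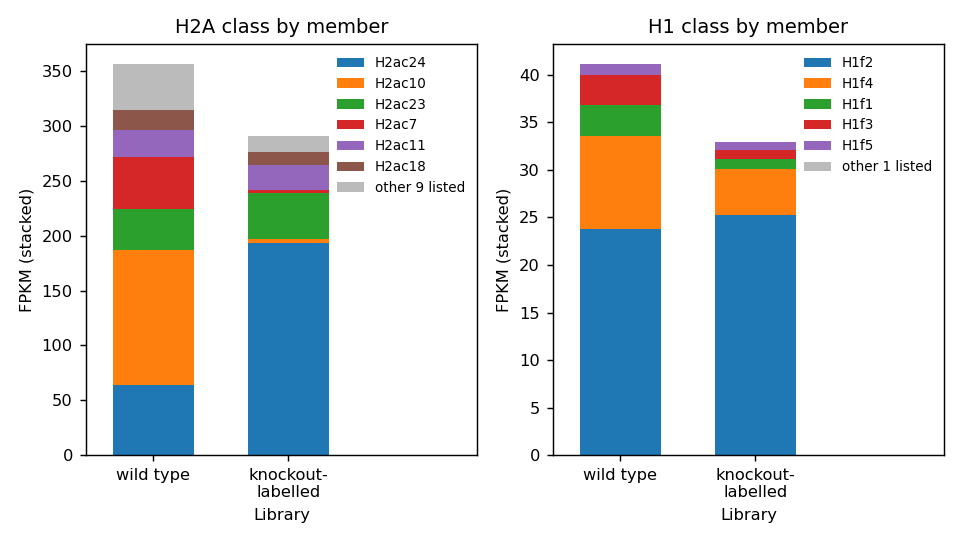
FPKM of single genes stacked within the H2A class (left) and the H1 class (right) in each library; the vertical axes differ. H2ac10 and H2ac7 take up much of the wild type H2A bar and almost none of the knockout-labelled bar, where H2ac24 takes 66.6%; in H1, H1f2 keeps its height while the other genes are lower.

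In the H2B class, 13 of 14 listed genes had a lower value in the knockout-labelled library. H2bc4, with 44.8% and 56.4% of the class, stood at 27.1 and 19.6 FPKM, a ratio of 0.723 (0.581 to 0.847). H2bc8 stood at 12.7 and 6.62 FPKM, a ratio of 0.521 (0.348 to 0.769). The gene with the longest listed transcript, H2bc21, was the least different, at 2.37 and 2.33 FPKM from about 96 and 87 reads. Below 5 FPKM, H2bc11 (3.28 and 1.09 FPKM), H2bc18 (2.72 and 0.62 FPKM) and H2bc3 (2.14 and 0.41 FPKM) were each at least 3-fold lower. H2bc9 (1.61 FPKM), H2bc13 (1.03 FPKM) and H2bc7 (0.36 FPKM) were listed in the wild type library alone. The gene that went the other way, H2bc14, was listed at 0.22 and 1.03 FPKM from about 2 and 7 reads, a ratio with an interval of 0.721 to 37.4.

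The H3 genes were all low, at no more than 4.17 FPKM in either library, and the most abundant, H3c3, made up only 23.8% and 25.4% of the class. H3c3 stood at 4.17 and 2.25 FPKM, H3c4 at 2.93 and 1.87 FPKM, H3c13 at 2.22 and 1.52 FPKM, and H3c6 at 2.14 and 2.12 FPKM. Each of these 4 ratios had a counting interval that included 1. H3c1 (2.41 FPKM), H3c15 (1.48 FPKM) and H3c10 (1.03 FPKM) were listed in the wild type library alone, from about 17, 14 and 7 reads. Over the H3 genes listed in both libraries the class difference was −0.51 in place of −0.91, beside −0.71 in place of −0.78 for H2B. H3c2 was listed in the knockout-labelled library alone, at 0.32 FPKM.

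The H4 class was carried by H4c9, with 74.97% of the wild type and 82.7% of the knockout-labelled sum. It stood at 28.5 and 23.9 FPKM, a ratio of 0.839 whose interval of 0.658 to 1.07 included 1. The other 11 H4 genes were each below 2 FPKM in both libraries and together summed to 9.52 and 5.02 FPKM, a ratio of 0.527. H4c18, listed in the wild type library alone, had 1.87 FPKM, while H4c17 was listed at 0.97 FPKM in the knockout-labelled library alone. All 50-base coding stretches of both genes also stood in other H4 genes, so their single values are uncertain. H4c4 stood at 1.85 and 0.32 FPKM and H4c8 at 1.13 and 0.24 FPKM, from fewer than 10 reads each.

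**Figure D4:**
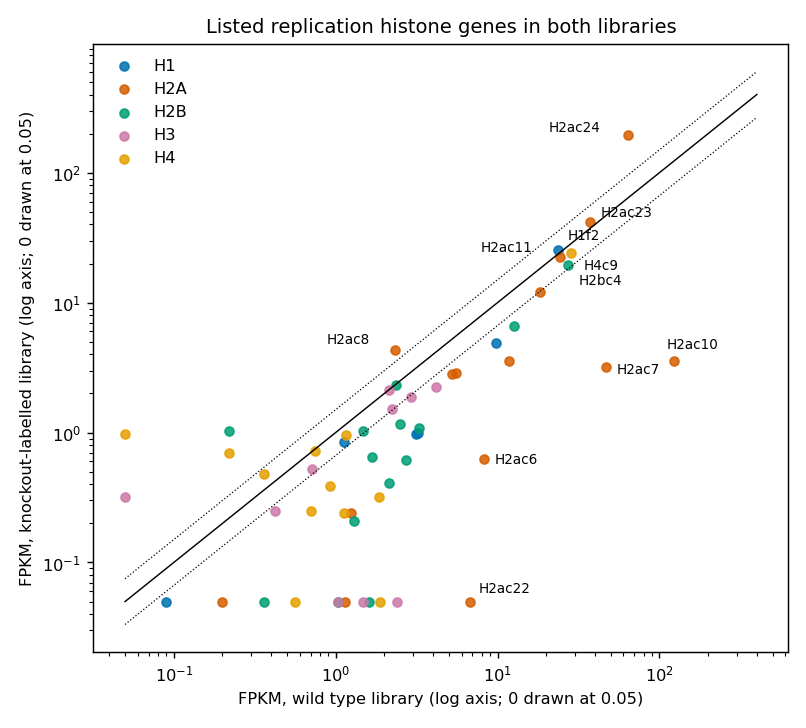
FPKM of the 57 listed genes in the wild type library (horizontal) against the knockout-labelled library (vertical), both on log axes with unlisted values drawn at 0.05; the solid line marks equal values and the dotted lines 1.5-fold. In all, 48 points lie below the solid line and 9 above it, and the abundant H1f2, H4c9, H2bc4, H2ac11 and H2ac23 lie close to it.

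By abundance, no order was seen in the median differences, which were −0.51, −0.71 and −0.44 from the most to the least abundant group. The 12 genes whose mean reached 5 FPKM summed to 428 and 360.2 FPKM, a ratio of 0.841, which was 0.458 without H2ac24 and 0.677 without both H2ac24 and H2ac10. The 21 genes with a mean of 1 to 5 FPKM summed to 67.5 and 28.9 FPKM, a ratio of 0.429, and 20 of the 21 were lower. The 24 genes under 1 FPKM summed to 18.5 and 7.15 FPKM, and 19 of them were lower. By cluster, 40 of 49 listed Hist1 genes and 8 of 8 Hist2 genes were lower, with sum ratios of 0.783 and 0.572 and median differences of −0.67 and −0.61. H2ac10 and H2ac24 are both Hist1 genes, and the Hist1 ratio without them was not computed. Genes were also split by the 3′ end of their longest matched GENCODE M21 transcript. The 20 listed genes that end within 100 bases of the stem-loop summed to 217 and 284 FPKM. The 18 that run further past it summed to 102 and 72.8 FPKM. The median differences of these groups were close, at −0.70 over 11 genes and −0.65 over 10. Of the first sum, H2ac24 made up 64.3 and 194 FPKM, and the sum without it was not computed. Lengths deposited with the FPKM can be shorter, as for H4c9 with 403 bases against 727, so the counted transcripts may end elsewhere.

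Many H2A and H2B genes sit head to head with a promoter region between them, and 11 such pairs were found as adjacent, outward-facing genes in GENCODE M21. Both genes were lower in 7 of the 11 pairs, for example H2ac7 with H2bc7, H2ac13 with H2bc13, and H2ac6 with H2bc4. H2bc7 and H2bc13 rest on only about 2 and 6 reads in the wild type library. Since 48 of all 57 listed genes were lower, the count of pairs does not show that paired genes differ together. In 2 pairs the H2A gene was higher and the H2B gene lower, namely H2ac8 with H2bc8 and H2ac23 with H2bc23. Across the pairs the H2A genes summed to 145 and 78.7 FPKM and the H2B genes to 52.5 and 32.5 FPKM. In the other 2 pairs at least 1 gene was listed in neither library.

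Promoters of the classes carry different short sequences, some of them known binding sites of transcription factors. RefSeq promoters (GRCm38.p6, 250 bases before to 50 after the start, both strands searched) were at hand for 52 of the 57 genes. A histone gene was counted if any of its promoters held the motif, while the share of all is over single promoters. CCAAT, the site of NF-Y, stood in all H1, H2A, H2B and H3 promoters and in 3 of 11 H4 promoters, against 37.4% of all 32851 promoters in the table. ATTTGCAT, the octamer bound by the factor Oct-1, stood in 6 of 12 H2B and 5 of 15 H2A promoters, in no H1, H3 or H4 promoter, and in 1.74% of all. AAACACA, the H1 box, stood in 5 of 6 H1 promoters and in 7.18% of all. TATAAA stood in 30 of 52 and in 13.6% of all. Exact matches at any position were counted, as for TATAAA at −137 in H4c9, so a match need not be a site in use. The sums with and without a motif had ratios of 0.420 and 0.977 for TATAAA, 0.453 and 0.807 for ATTTGCAT, 0.776 and 0.798 for CCAAT, and 0.821 and 0.773 for AAACACA. H2ac10 and H2ac24 are both among the genes without TATAAA, whose ratio was 0.860 without these genes. Leaving out this pair, the ratios with and without a motif were 0.453 and 0.625 for ATTTGCAT, 0.576 and 0.798 for CCAAT, and 0.821 and 0.564 for AAACACA. Any part of the motifs in the differences was not tested. The 200 bases before the start are shown for 4 abundant genes, with these motifs in capitals (ATTGG is CCAAT on the other strand).
H1f2 (chr13:23738607-23738806, + strand): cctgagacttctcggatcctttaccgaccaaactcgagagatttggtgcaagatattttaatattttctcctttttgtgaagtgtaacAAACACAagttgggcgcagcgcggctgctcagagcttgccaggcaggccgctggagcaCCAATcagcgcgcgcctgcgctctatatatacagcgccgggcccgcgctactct
H2bc8 (chr13:23571200-23571399, + strand): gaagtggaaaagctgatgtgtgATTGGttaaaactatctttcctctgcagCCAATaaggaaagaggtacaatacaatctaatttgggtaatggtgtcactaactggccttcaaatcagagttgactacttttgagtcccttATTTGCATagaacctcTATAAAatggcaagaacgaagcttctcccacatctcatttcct
H2ac24 (chr13:21833476-21833675, − strand): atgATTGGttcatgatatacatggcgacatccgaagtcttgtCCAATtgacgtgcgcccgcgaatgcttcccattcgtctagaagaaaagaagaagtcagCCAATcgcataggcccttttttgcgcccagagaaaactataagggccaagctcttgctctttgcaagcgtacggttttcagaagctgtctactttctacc
H4c9 (chr13:22041363-22041562, − strand): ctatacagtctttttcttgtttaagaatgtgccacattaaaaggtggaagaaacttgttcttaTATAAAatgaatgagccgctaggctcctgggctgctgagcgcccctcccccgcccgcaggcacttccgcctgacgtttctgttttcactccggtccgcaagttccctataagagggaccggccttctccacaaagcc

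The variant histone genes were far more abundant, and their median difference was smaller than the −0.70 of the replication histone genes. Their sum ratio of 0.859 stood beside 0.771 for all replication genes. For replication genes whose mean reached 5 FPKM it was 0.841, or 0.677 without H2ac10 and H2ac24. Centred on genes of similar length, the variant median was −0.049. The sum over all replication classes came to −0.014, but a sum is unlike a median over genes. After the same centring, 13 of the 33 replication genes were still at least 1.5-fold lower and 2 higher. All 11 in the variant list had the lower value in the knockout-labelled library, but only 1 by at least 1.5-fold. They summed to 2733 and 2348 FPKM, a ratio of 0.859, with a median difference of −0.26. Macroh2a1, a variant with a large extra domain, stood at 981 and 945 FPKM. The H3.3 genes stood at 668 and 514 FPKM (H3f3a) and 385 and 320.4 FPKM (H3f3b), so that each exceeded the sum of all replication H3 genes many times over. H2az1 stood at 335 and 280.4 FPKM, H2ax, which marks DNA breaks when phosphorylated, at 122 and 108 FPKM, and H2az2 at 53.4 and 35.6 FPKM. H1f0 stood at 67.7 and 46.2 FPKM and H1f10, the gene past 1.5-fold, at 33.6 and 19.0 FPKM. Cenpa, the H3 variant of centromeres, stood at 41.8 and 37.1 FPKM, H2aj at 39.2 and 35.8 FPKM, and Macroh2a2 at 6.44 and 5.70 FPKM.

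Lists of genes that make and process histone mRNA, carry histones or drive S phase had median differences between 0.00 and 0.22. Their counts past 1.5-fold stand beside 6.13% lower and 6.11% higher over all genes. Of 12 genes of histone gene transcription, 9 were higher and 3 lower. The median difference was 0.22, or 0.016 after centring on genes of similar length. In this list 1 gene was past 1.5-fold upward and 0 downward. That gene was Casp8ap2, which encodes the NPAT partner FLASH, at 10.7 and 17.6 FPKM. Yy1 stood at 35.97 and 53.5 FPKM, E2f1 at 13.2 and 16.8 FPKM, Cramp1l at 6.88 and 8.44 FPKM, and Nfya, the most abundant, at 64.4 and 62.7 FPKM. Npat and Slbp, named here for their role after their values were seen, stood at 7.87 and 9.59 FPKM and at 68.0 and 66.0 FPKM. Of 26 listed genes of histone mRNA processing and decay, 1 was past 1.5-fold downward and 0 upward (median 0.06). It was Snrpe, a short gene for an Sm ring protein of snRNPs, at 350.2 and 184 FPKM. Snrpf stood at 286 and 240.1 FPKM, Lsm10, a subunit of the U7 snRNP that cuts histone mRNA, at 11.1 and 7.51 FPKM, Upf1, which takes part in histone mRNA decay, at 23.2 and 35.3 FPKM, and Xrn1, a 5′ to 3′ exonuclease, at 4.73 and 6.81 FPKM.

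Of 28 histone chaperone genes, 1 was past 1.5-fold upward and 0 downward (median 0.10, or −0.0053 after the same centring). It was Set, at 207 and 314 FPKM. Atrx stood at 33.8 and 47.3 FPKM, the FACT gene Supt16 at 50.4 and 68.1 FPKM, Vps72 at 64.4 and 47.6 FPKM, Npm1 at 1915 and 2047 FPKM and Nap1l1 at 576 and 619 FPKM. None of 40 S phase genes and none of 24 G2/M genes differed by 1.5-fold, and their medians were 0.00 and 0.17. The replication clamp gene Pcna stood at 375 and 311 FPKM and Mcm7 at 210.3 and 177 FPKM. Tk1 stood at 42.7 and 29.6 FPKM, Rrm2 at 54.9 and 78.3 FPKM, Pola1 at 16.7 and 23.8 FPKM and Uhrf1 at 56.8 and 78.5 FPKM. Among G2/M genes, Mki67 stood at 98.9 and 140.3 FPKM, Bub1 at 11.9 and 17.2 FPKM, Ccnb1 at 35.0 and 48.9 FPKM, Cenpe at 20.4 and 27.2 FPKM, while Top2a had 163 and 191 FPKM and Ube2c 141 and 132 FPKM. The S phase genes summed to 2535 and 2444 FPKM.

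**Figure D5:**
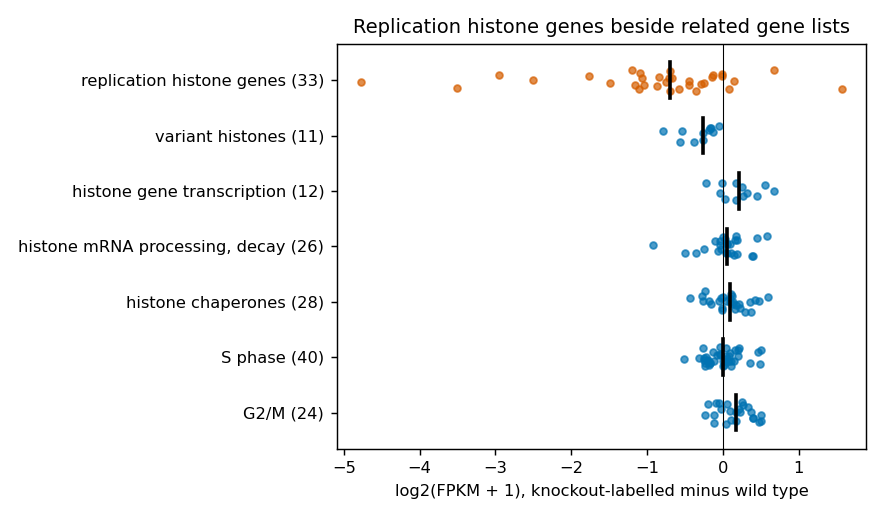
Difference in log2(FPKM + 1), knockout-labelled minus wild type, of each gene whose mean reached 1 FPKM in the replication histone genes (orange) and 6 related lists (blue), with the median as a black bar and the number of genes in parentheses. The replication histone genes spread from below −4 to above 1 with a median of −0.70, whereas the medians of the other lists lie between −0.26 and 0.22.

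Markers of other blood cells also differed between the same libraries. Of 14 neutrophil markers, 9 were at least 1.5-fold higher in the knockout-labelled library, and their sum went from 8674 to 12101 FPKM. Of 10 B cell markers whose mean reached 1 FPKM, all 10 were at least 1.5-fold lower (sum over 11, 150 and 66.0 FPKM). So were 6 of 10 erythroid markers (1503 and 455 FPKM) and 8 of 10 dendritic cell markers (sum over 11, 525 and 312 FPKM). No marker of these 4 lists was at 0 in either library. Their part in the histone differences was not tested.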

How the data were processed

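RNA-seq of 2 libraries, 1 per genotype, was analysed. The authors deposited FPKM values with a length per Entrez gene, per the file headers, and the submitters' processing notes name HISAT, HISAT2, RSEM and, as build, mm9, with versions, settings, strand and read length not given in the sources used here. Values were used as deposited, and unlisted genes as 0. Symbols came from RefSeq (GRCm38.p6), which matched 17169 of 17216 identifiers. As mm9 differs, sequences came from RefSeq promoters and GENCODE M21 transcripts, by gene, and the coordinates printed are GRCm38.p6.

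Members were summed by class. Differences are log2(FPKM + 1), knockout-labelled minus wild type. Counts at 1.5-fold took genes whose mean reached 1 FPKM. With 1 library per genotype no test was made. The value of 1 read was the step (64.9 and 70.2, after 39 and 38 bases were taken off the length) that brought FPKM times length of low, single-transcript genes closest to whole numbers. The share of whole values among other genes is high by this fit. Exact conditional 95% intervals used the rounded reads. The procedure was checked on simulated data with whole reads drawn for each gene, so the check does not cover reads split between alike copies.

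Named were Agbl3, members whose mean reached 5 FPKM or listed in 1 library at 1 FPKM or more, all variant histones of at least 5 FPKM, and in other lists up to 4 genes by difference and 2 by abundance. Some further members are named for completeness. The members and lists were chosen with earlier results of these data known. Alternatives covered the pseudocount, filter, fold, scaling, membership and length. The range of 404 to 778 bases was chosen after seeing the data. Scripts used scipy 1.17.1, pandas 2.3.3 and numpy 2.4.6 under Python 3.11.15, with figures from matplotlib 3.10.9.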

Additional observations from a re-analysis of the deposited data

How the results depend on the processing

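No paired analysis was possible because there was 1 library per genotype. The H2A difference of −0.29 became 0.067 when centred on genes of similar length, which brought H1 to −0.040, H2B to −0.43, H4 to −0.010 and the sum over all classes from −0.37 to −0.014. Without the gene of highest mean, H1 gave −1.08, H2A −1.58, H2B −1.09, H4 −0.81 and the sum −1.15. For H2A and the sum that gene is H2ac24. Without H2ac10, which leads in the wild type library, H2A turned to 0.30 and the sum to 0.0065, and without both they gave −0.85 and −0.71 (choices made after seeing the data). With equal FPKM sums, which moved the median of all genes from 0.01 to 0.18, H2A gave −0.10 and the sum −0.18. Another 42 values of sums kept their direction and moved by less than the counting interval reaches from its centre, H3 among them at −0.51 over genes listed in both libraries and −0.55 with length centring, from −0.91. Counts of lower and higher genes (19 and 2) became 6 and 1 with a pseudocount of 5, 29 and 4 without a filter, 5 and 1 among genes whose mean reached 5 FPKM, and 12 and 1 at 2-fold. At these other settings the share over all genes was not computed, so the counts cannot be set against a general rate. Equal sums gave medians of −0.067 for variant histones, 0.39 for histone gene transcription, 0.24 for mRNA processing, 0.29 for chaperones, 0.18 for S phase and 0.36 for G2/M. Length centring gave −0.049 for variant histones, 0.016 for histone gene transcription (from 0.22) and −0.0053 for chaperones (from 0.10). The S phase median, near 0, was −0.023 with upper-quartile scaling. The cause was not tested. H3 and most H4 genes rest on under 30 reads each, so single-gene ratios there are imprecise.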
